A study of Mus musculus with 6 samples.

Results

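Spink3 is a serine protease inhibitor that is packed with the digestive enzymes of the pancreatic acinar cell, and the genes described here are the 35 genes of the unfolded protein response and the endoplasmic reticulum (ER) folding machinery that were listed for the newborn mouse pancreas. They were taken as every non-control array probe that carries the gene's symbol, in its older or newer form. All 35 genes had a probe, and all 35 were among the 14167 genes tested. Pancreas was harvested whole from C57BL/6N mice at postnatal day 0.5 and frozen, and its total RNA was hybridised to 6 single-colour Agilent arrays, 2 for each of 3 genotypes. The wild type is Spink3+/+. Spink3-/- lacks the inhibitor, and per the series' design text all of its acinar cells undergo a nonapoptotic death with autophagy. Spink3-/-XKI/+ carries the same deletion together with 1 copy of an allele written XKI, whose meaning and promoter are not given here. For that genotype the design text describes a mixture, in which part of the acinar cells are normal and the others die as in Spink3-/-. The labels do not say that the 2 arrays of a genotype came from separate mice, so the p-values reflect only how far these samples differ, and that spread may be technical.

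The ER of the acinar cell folds one of the largest loads of secreted protein in the body. When unfolded protein builds up there, a trio of sensors in its membrane responds: Ern1 (IRE1) splices the Xbp1 messenger RNA, Atf6 is cut to release a transcription factor, and Eif2ak3 (PERK) slows translation while raising translation of Atf4. Spliced Xbp1 and cut Atf6 act on promoters of chaperones and of ER-associated degradation genes, and Atf4 acts on genes of amino acid supply and on Ddit3 (CHOP). The arrays measured messenger RNA level. They did not measure Xbp1 splicing, Atf6 cleavage, translation or protein.

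The sequences that these factors are known to bind are shown first. The genes were listed as members of this response. Matches among them were therefore likely beforehand and give no independent support. Promoter windows from RefSeq (GRCm38), reaching from 250 bases before to 50 bases after each transcript start, were at hand for 30 of the 35 genes. The classical ER stress response element, ERSE, was searched on both strands as CCAAT and CCACG with 9 bases of any kind between them. It was found in 39 of 32851 windows (0.119%), belonging to 37 of 27025 genes (0.137%), and in 10 of the 30 genes described here (33.3%). These 10 were the chaperone genes Hspa5, Hsp90b1, Calr, Canx, Creld2 and Dnajc3, the disulfide enzyme genes Pdia6 and Ero1lb, and the degradation genes Syvn1 and Derl3. A second form, ERSE-II, searched as ATTGG and CCACG with 1 base between them, lay in 0.0365% of all windows and in 2 of the 30 genes, Herpud1 and Dnajb11. The amino acid response element that Atf4 binds, searched in the form TTGCATCA (AARE), lay in 0.895% of all windows and in 2 of the 30, Chac1 and Herpud1. The short element TGACGTGG (UPRE) lay in 0.676% of all windows and in 0 of the 30. A match is a description of letters. No binding was measured, and the absence of a match concerns these letters in these windows only.

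The stretches below run 5′ to 3′ on each gene's own strand and end at the base before the transcript start, 220 bases in all, with the matched letters in capitals. Each holds an element whole, and the genes return in the results. They are chaperone genes, the disulfide enzyme gene Pdia6, and the 2 genes with the AARE letters. Of the 10 ERSE genes, the 5 printed were all higher in Spink3-/- than in wild type. The other 5 (Canx, Dnajc3, Ero1lb, Derl3 and Syvn1) also hold the element whole and were all lower. Canx, Derl3 and Syvn1 differed by only -0.07, -0.06 and -0.08 and overlapped wild type, and their sign changed under some alternative settings. Pdia6, among the printed genes, overlapped wild type as well. The printed stretches therefore do not stand for all 10. The stretches lie at chr2:34771870-34772089 (Hspa5, plus strand), chr10:86705445-86705664 (Hsp90b1, minus strand), chr8:84846932-84847151 (Calr, minus strand), chr15:88819426-88819645 (Creld2, plus strand), chr12:17266369-17266588 (Pdia6, plus strand), chr8:94386209-94386428 (Herpud1, plus strand) and chr2:119351022-119351241 (Chac1, plus strand) of GRCm38.
Hspa5: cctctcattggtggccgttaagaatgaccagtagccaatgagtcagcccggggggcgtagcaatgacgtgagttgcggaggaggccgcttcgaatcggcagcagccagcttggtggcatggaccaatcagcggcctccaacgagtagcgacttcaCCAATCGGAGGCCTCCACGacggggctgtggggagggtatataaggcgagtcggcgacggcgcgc
Hsp90b1: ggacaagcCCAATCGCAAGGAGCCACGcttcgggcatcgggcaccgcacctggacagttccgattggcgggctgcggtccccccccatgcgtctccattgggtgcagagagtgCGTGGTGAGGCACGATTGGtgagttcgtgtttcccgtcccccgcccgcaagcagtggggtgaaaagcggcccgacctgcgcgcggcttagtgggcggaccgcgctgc
Calr: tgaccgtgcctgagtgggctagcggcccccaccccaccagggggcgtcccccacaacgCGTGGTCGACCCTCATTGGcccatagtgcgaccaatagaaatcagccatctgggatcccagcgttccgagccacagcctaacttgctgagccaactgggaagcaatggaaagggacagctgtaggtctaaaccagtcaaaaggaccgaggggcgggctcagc
Creld2: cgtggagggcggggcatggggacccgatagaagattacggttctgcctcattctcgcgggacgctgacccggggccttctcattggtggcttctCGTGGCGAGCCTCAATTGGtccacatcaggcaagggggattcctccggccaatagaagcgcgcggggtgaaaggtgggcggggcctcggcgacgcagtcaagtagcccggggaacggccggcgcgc
Pdia6: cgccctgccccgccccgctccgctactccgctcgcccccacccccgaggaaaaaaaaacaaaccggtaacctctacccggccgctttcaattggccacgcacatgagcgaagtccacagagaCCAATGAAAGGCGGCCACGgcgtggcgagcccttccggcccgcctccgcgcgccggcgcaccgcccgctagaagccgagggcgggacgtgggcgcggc
Herpud1: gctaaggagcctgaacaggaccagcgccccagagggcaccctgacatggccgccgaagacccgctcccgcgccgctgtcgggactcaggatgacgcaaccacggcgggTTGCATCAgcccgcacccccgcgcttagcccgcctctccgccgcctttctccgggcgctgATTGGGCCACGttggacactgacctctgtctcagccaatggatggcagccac
Chac1: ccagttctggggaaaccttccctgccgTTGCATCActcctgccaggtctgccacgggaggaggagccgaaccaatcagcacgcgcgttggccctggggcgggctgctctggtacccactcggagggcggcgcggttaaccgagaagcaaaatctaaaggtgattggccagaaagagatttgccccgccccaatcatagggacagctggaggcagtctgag
Hspa5 holds the ERSE letters from 65 to 47 bases before the start, and Hsp90b1 holds them at 2 places in opposite orientations. Herpud1 is the gene that holds both kinds of letters: the AARE form from 112 to 105 bases before the start and ERSE-II from 52 to 42 bases before it. In Chac1 the AARE form lies from 193 to 186 bases before the start.

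**Figure D1:**
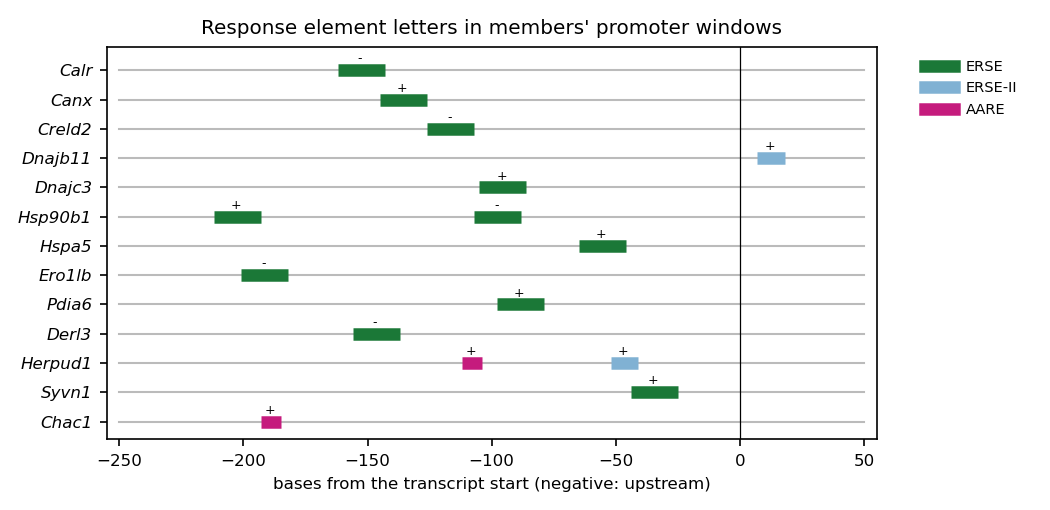
Positions of the matched letters in the promoter windows of the 13 genes that hold any, in bases from the transcript start (horizontal axis). Green bars mark ERSE, blue ERSE-II and magenta AARE, and the sign above a bar gives the strand relative to the gene. All ERSE and AARE matches lie before the start, and the ERSE-II match of Dnajb11 lies after it.

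Levels are given on a log2 scale relative to each array's own 75th percentile of signal over all probes, so a difference of 1 between arrays is a 2-fold difference. Levels of different genes come from different probes and are not set against each other. Where a gene has several probes, the brightest stands for it, and each of these 35 probes was well above background on all 6 arrays. The arrays had 42.4% to 50.8% of their probes well above background and no saturated spot. Spink3 itself stood at 9.84 and 10.26 in Spink3+/+, at 3.25 and 2.95 in Spink3-/- and at 2.64 and 2.34 in Spink3-/-XKI/+, so that all 4 arrays labelled Spink3-/- or Spink3-/-XKI/+ lay far below wild type. This does not check the XKI allele, and the labels do not say whether the probe lies in the deleted stretch. All arrays were on 1 slide. Its first row held both Spink3+/+ arrays and Spink3-/- replicate 1, and its second row held Spink3-/- replicate 2 and both Spink3-/-XKI/+ arrays, so Spink3-/-XKI/+ and wild type can be told apart from the row only through the 2 Spink3-/- arrays. The arrays are few, and their number limits the precision of every value. As the tissue was whole pancreas, fewer cells of a type and less RNA per cell cannot be told apart.

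No gene of the list passed the test in any comparison (limma, Benjamini-Hochberg over all 14167 genes, threshold 0.05). Of the 35 genes, 0 were called in Spink3-/- against wild type, against a background of 5 called genes (0.0353% of all tested), Spink3 among them. In Spink3-/-XKI/+ against wild type 0 of the 35 were called, against 1 called gene (0.00706%), which was Spink3. Between Spink3-/- and Spink3-/-XKI/+ 0 of the 35 were called, against a background of 0.00706%. At an unadjusted p under 0.05 the list held 1 higher and 2 lower genes in Spink3-/- against wild type, where 2.73% and 2.33% of all genes were higher and lower. It held 2 higher and 3 lower genes in Spink3-/-XKI/+ against wild type, where 5.03% and 2.54% of all genes were. It held 2 higher and 0 lower genes in Spink3-/- against Spink3-/-XKI/+, where 2.44% and 4.77% of all genes were. These are counts of a few genes, and nothing particular to the list is read from them.

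The intervals describe the size of each difference given the spread among these arrays. As that spread may be technical, they need not bound a difference between genotypes. They are not adjusted for the number of genes. The 95% interval of the difference lay wholly within 2-fold in either direction for 31 of the 35 genes in Spink3-/- against wild type, for 27 in Spink3-/-XKI/+ against wild type and for 30 in Spink3-/- against Spink3-/-XKI/+. For all tested genes this was not counted, so nothing particular to the list is read from it. The intervals that reached 2-fold in the first comparison were those of Chac1, Ddit3, Ero1lb and Trib3. The median absolute difference of the list was 0.16 log2 in the first comparison, the same as that of all genes, and 0.27 in Spink3-/- against Spink3-/-XKI/+, where that of all genes was 0.18. For these genes the 2 arrays of one genotype differed from each other by a median of 0.22 in Spink3+/+, 0.21 in Spink3-/- and 0.16 in Spink3-/-XKI/+.

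Most of the list was a little higher in Spink3-/- than in either other genotype. Compared with wild type, in Spink3-/- 24 of 35 genes were higher, where 49.1% of all genes were, with a median of 0.10 against -0.01 for all genes. Both Spink3-/- arrays lay above both wild-type arrays for 12 genes and below them for 4, where 16.2% and 16.6% of all genes did so. Under scaling to the spike-in probes, in place of the 75th percentile, 29 of the 35 were higher, with a median of 0.19 against 0.08 for all genes. In Spink3-/-XKI/+ against wild type the order was the other way: 10 genes were higher and 25 lower, where 56.3% of all genes were higher, with a median of -0.09 against 0.04 for all genes, and 8 were higher and 14 lower without overlap, where 26% and 16.1% of all genes were.

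Relative to Spink3-/-XKI/+, 27 of 35 genes were higher in Spink3-/-, where 42.7% of all genes were, and the median was 0.22 against -0.04 for all genes. Both Spink3-/- arrays lay above both Spink3-/-XKI/+ arrays for 16 genes and below them for 2, where 13.1% and 21.4% of all genes did so. Within the second slide row, which holds 1 Spink3-/- array and both Spink3-/-XKI/+ arrays, the median was 0.24 and 28 genes were higher. These counts describe genes of one list on shared arrays and carry no test of the list. The first 2 comparisons share the wild-type arrays, and the Spink3-/- arrays enter both the first and the last.

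**Figure D2:**
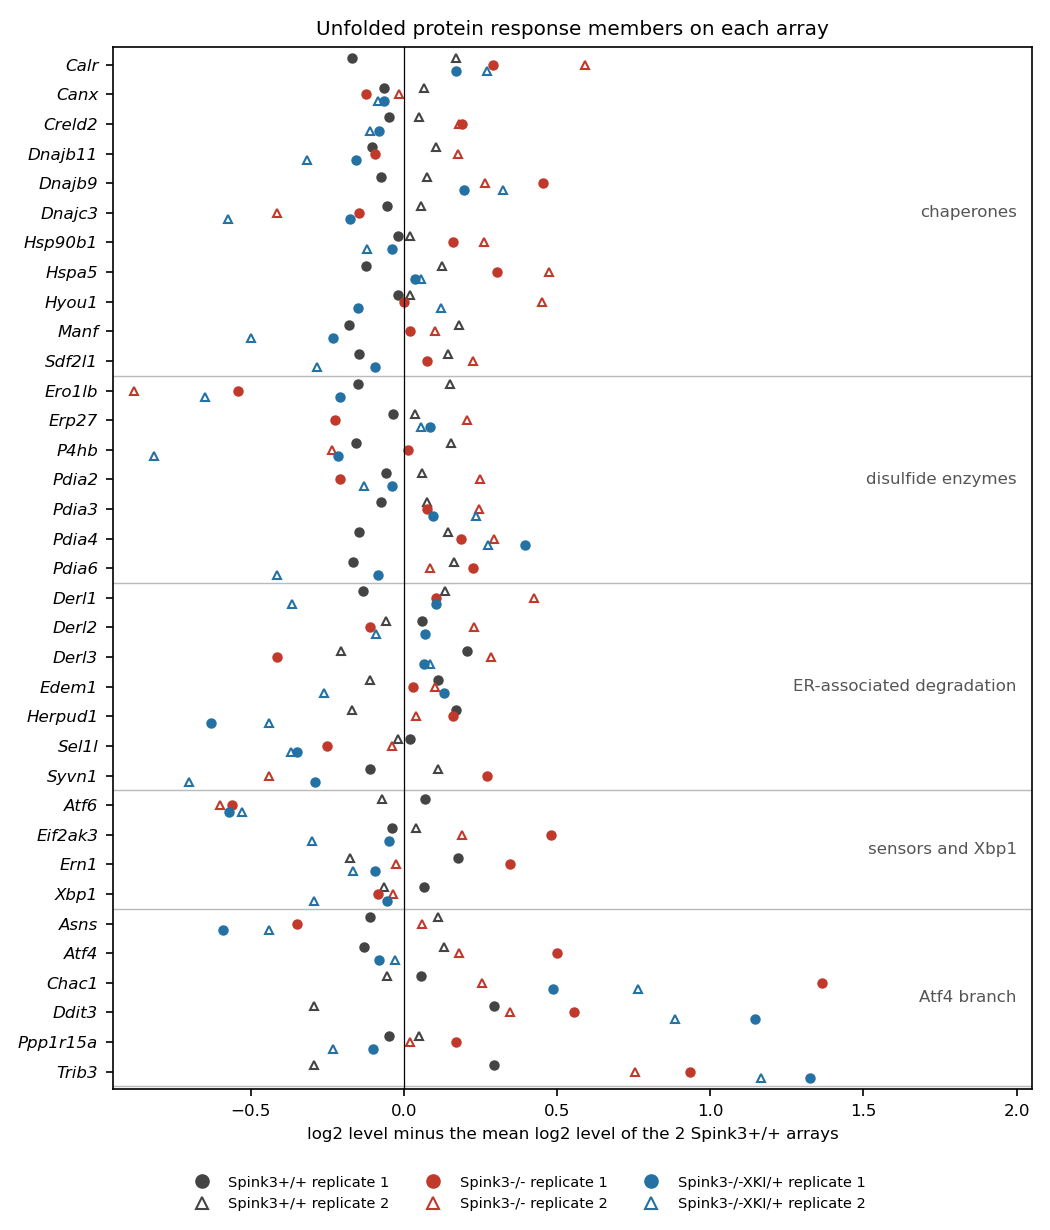
Each of the 35 genes on each of the 6 arrays, as its log2 level minus the mean of both Spink3+/+ arrays (horizontal axis, 0 is the wild-type mean), grouped by role. Grey points are Spink3+/+, red Spink3-/- and blue Spink3-/-XKI/+, with filled circles for replicate 1 and open triangles for replicate 2. Most points lie within 0.5 of 0; Chac1, Ddit3 and Trib3 reach farthest to the right and Ero1lb farthest to the left.

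The chaperones bind unfolded chains in the ER. All 11 chaperone genes were higher in Spink3-/- than in Spink3-/-XKI/+, by 0.01 to 0.42 with a median of 0.27, and 7 of the 11 without overlap, as were 13.1% of all genes; 9 of the 11 kept that direction under all 14 alternative settings and left-out arrays, the exceptions being Canx and Dnajc3. The lowest adjusted p among them was 0.723 (limma). Against wild type 9 of 11 were higher in Spink3-/- (median 0.18), and 3 of 11 were higher in Spink3-/-XKI/+ (median -0.08). In all those settings 7 and 8 of the 11 kept their sign. Several of the settings give the main difference again by construction, so they could not change a sign.

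Hspa5 encodes BiP, the ER's main Hsp70 chaperone and the partner that holds the sensors inactive. Its level was 6.74 and 6.99 in Spink3+/+, 7.17 and 7.34 in Spink3-/- and 6.90 and 6.92 in Spink3-/-XKI/+. Both Spink3-/- arrays were above the other 4, and the Spink3-/-XKI/+ arrays lay between both wild-type values. The difference from wild type was 0.39 (SE 0.18, n = 2 arrays each, limma adjusted p = 0.987) in Spink3-/- and 0.05 (adjusted p = 0.966) in Spink3-/-XKI/+. Between the 2 Spink3-deficient genotypes it was 0.34, with a 95% interval from -0.09 to 0.77.

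Hsp90b1, the ER's Hsp90 (GRP94), stood at 4.93 and 4.97 in Spink3+/+, 5.11 and 5.21 in Spink3-/- and 4.91 and 4.83 in Spink3-/-XKI/+. Its Spink3-/- arrays were above, and its Spink3-/-XKI/+ arrays just below, the wild-type arrays, by 0.21 and -0.08 in the mean; the limma adjusted p-values were 0.987 and 0.927. Creld2, a secreted ER stress protein, had the same order, with 4.72 and 4.82 in Spink3+/+, 4.96 and 4.95 in Spink3-/- and 4.69 and 4.66 in Spink3-/-XKI/+. Calr, the lectin chaperone calreticulin, had the largest difference from wild type among the chaperones in Spink3-/-, 0.44 (SE 0.20, limma adjusted p = 0.987). It stood at 4.31 and 4.65 in Spink3+/+, 4.77 and 5.07 in Spink3-/- and 4.65 and 4.75 in Spink3-/-XKI/+. That difference was 0.27 without Spink3+/+ replicate 1 and 0.29 without Spink3-/- replicate 2.

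Manf, a small ER-resident and secreted survival factor, had the largest chaperone difference between the Spink3-deficient genotypes. Its level was 2.73 and 3.09 in Spink3+/+, 2.93 and 3.01 in Spink3-/- and 2.68 and 2.41 in Spink3-/-XKI/+. Here both Spink3-/-XKI/+ arrays were below all others, replicate 1 only just (2.68 against 2.73). Their mean was 0.36 below wild type (SE 0.20, limma adjusted p = 0.744), with a 95% interval of the difference from -0.85 to 0.13. It was 0.42 below Spink3-/- (adjusted p = 0.723). Without Spink3+/+ replicate 2 the difference from wild type was -0.18, and without Spink3-/-XKI/+ replicate 2 it was -0.23. Dnajc3, a co-chaperone that also inhibits Eif2ak3, was the chaperone gene farthest below wild type in both deficient genotypes, at -0.28 and -0.38, with 2.15 and 2.26 in Spink3+/+, 2.06 and 1.79 in Spink3-/- and 2.03 and 1.63 in Spink3-/-XKI/+. Its lowest limma adjusted p was 0.744, and with slide row as a block the differences were -0.15 and -0.11.

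The enzymes that make and rearrange disulfide bonds showed no common direction. Of 7 genes, 4 were higher in Spink3-/- than in wild type (median 0.02), 3 in Spink3-/-XKI/+ than in wild type (median -0.08) and 3 in Spink3-/- than in Spink3-/-XKI/+ (median 0.00). Pdia2 and Erp27, which are made chiefly by the pancreas, differed between genotypes by at most 0.10 in size. With slide row as a block, Spink3-/-XKI/+ was below wild type by 0.54 for Pdia2 and by 0.37 for Erp27. Pdia2 stood at 9.99 and 10.11 in Spink3+/+, 9.84 and 10.30 in Spink3-/- and 10.01 and 9.92 in Spink3-/-XKI/+.

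Ero1lb, listed by RefSeq as Ero1b, is the pancreatic oxidase that reoxidises the disulfide isomerases. Its level was 1.34 and 1.64 in Spink3+/+, 0.95 and 0.61 in Spink3-/- and 1.28 and 0.84 in Spink3-/-XKI/+. Both deficient genotypes lay below wild type without overlap, and they overlapped each other. The difference was -0.71 (SE 0.24, unadjusted p = 0.0241, limma adjusted p = 0.968) for Spink3-/- and -0.43 (adjusted p = 0.74) for Spink3-/-XKI/+. With slide row as a block these were -0.54 and -0.09, and with 1 array left out the Spink3-/-XKI/+ value ranged from -0.65 to -0.22.

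P4hb, the classical protein disulfide isomerase, stood at 4.30 and 4.61 in Spink3+/+, 4.47 and 4.22 in Spink3-/- and 4.24 and 3.64 in Spink3-/-XKI/+. The lowest value came from Spink3-/-XKI/+ replicate 2, and the mean of that genotype was 0.51 below wild type (limma adjusted p = 0.723); it was 0.21 below without that array and 0.81 below without replicate 1. Pdia6, an isomerase that also restrains Ern1, was 0.41 higher in Spink3-/- than in Spink3-/-XKI/+ (SE 0.21, limma adjusted p = 0.735), with 6.02 and 5.88 against 5.71 and 5.38; without Spink3-/-XKI/+ replicate 2 it was 0.24. Pdia4 differed from wild type by 0.23 and 0.34 in Spink3-/- and Spink3-/-XKI/+, each without overlap; without Spink3+/+ replicate 1 these were 0.09 and 0.19.

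ER-associated degradation extracts misfolded proteins to the cytosol for the proteasome. Its 7 genes were near wild type in Spink3-/- (median 0.06, 4 higher), mostly lower in Spink3-/-XKI/+ (median -0.13, 6 lower, 3 of them without overlap, as were 16.1% of all genes) and higher in Spink3-/- than in Spink3-/-XKI/+ for 6 of 7 (median 0.21, 3 without overlap, as were 13.1% of all genes). Over the 14 alternative settings and left-out arrays, 2 of the 7 kept their sign in each comparison with wild type. Between the deficient genotypes 4 of the 7 kept it. As for the chaperones, several of these settings could not change a sign.

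Herpud1, a membrane protein that gathers the degradation complex, gave the largest difference of the whole list between the Spink3-deficient genotypes. It stood at 5.18 and 4.84 in Spink3+/+, 5.17 and 5.05 in Spink3-/- and 4.38 and 4.57 in Spink3-/-XKI/+. Wild type and Spink3-/- overlapped, and both Spink3-/-XKI/+ arrays were below the other 4. Spink3-/- was above Spink3-/-XKI/+ by 0.64 (SE 0.19, 95% interval 0.17 to 1.11, unadjusted p = 0.0161, limma adjusted p = 0.563), and the value ranged from 0.54 to 0.73 over the 14 alternative settings and left-out arrays. Spink3-/-XKI/+ was below wild type by 0.54 (limma adjusted p = 0.622). This is the gene whose promoter, printed above, holds both the ERSE-II and the AARE letters. Any link between those letters and its level was not tested.

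Syvn1 (HRD1), the ubiquitin ligase of the pathway, varied most between the 2 Spink3-/- arrays, with 4.09 and 4.31 in Spink3+/+, 4.47 and 3.76 in Spink3-/- and 3.91 and 3.50 in Spink3-/-XKI/+. Its difference between Spink3-/-XKI/+ and wild type was -0.49 (limma adjusted p = 0.751), and with slide row as a block it became 0.22. Sel1l, the ligase's partner, was 0.15 lower in Spink3-/- and 0.36 lower in Spink3-/-XKI/+ than in wild type, each without overlap; the limma adjusted p-values were 0.99 and 0.706. Derl1, a channel component, was 0.27 higher in Spink3-/- than in wild type on its brighter probe and 0.22 lower on its other probe.

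The sensors were read by 4 genes. Atf6 had the lowest unadjusted p of the list in Spink3-/- against wild type. Its level was -1.11 and -1.25 in Spink3+/+, -1.74 and -1.78 in Spink3-/- and -1.75 and -1.71 in Spink3-/-XKI/+. The 4 Spink3-deficient arrays lay within 0.1 of each other and well below both wild-type arrays. The differences from wild type were -0.58 (SE 0.16, unadjusted p = 0.0108, limma adjusted p = 0.863) and -0.55 (SE 0.16, adjusted p = 0.531), and the 2 deficient genotypes differed by -0.03, with a 95% interval from -0.42 to 0.36. Over the alternative settings and left-out arrays the Spink3-/- difference ranged from -0.65 to -0.22; with normexp background correction it was -0.22, and the Spink3-/-XKI/+ difference was -0.20.

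Eif2ak3 stood at 2.64 and 2.72 in Spink3+/+, 3.16 and 2.87 in Spink3-/- and 2.63 and 2.38 in Spink3-/-XKI/+. The Spink3-/- arrays were above the other 4, by 0.51 against Spink3-/-XKI/+ (SE 0.19, unadjusted p = 0.0357, limma adjusted p = 0.642) and by 0.34 against wild type (adjusted p = 0.987), or 0.19 without Spink3-/- replicate 1. Ern1 differed by 0.29 between the deficient genotypes and Xbp1 by 0.12. Xbp1, the transcription factor that the acinar cell needs for its ER, stood at 6.70 and 6.57 in Spink3+/+, 6.55 and 6.60 in Spink3-/- and 6.58 and 6.34 in Spink3-/-XKI/+, and its 95% interval against wild type ran from -0.48 to 0.36 in Spink3-/-. Its probe reads total Xbp1 messenger RNA and not the spliced form.

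**Figure D3:**
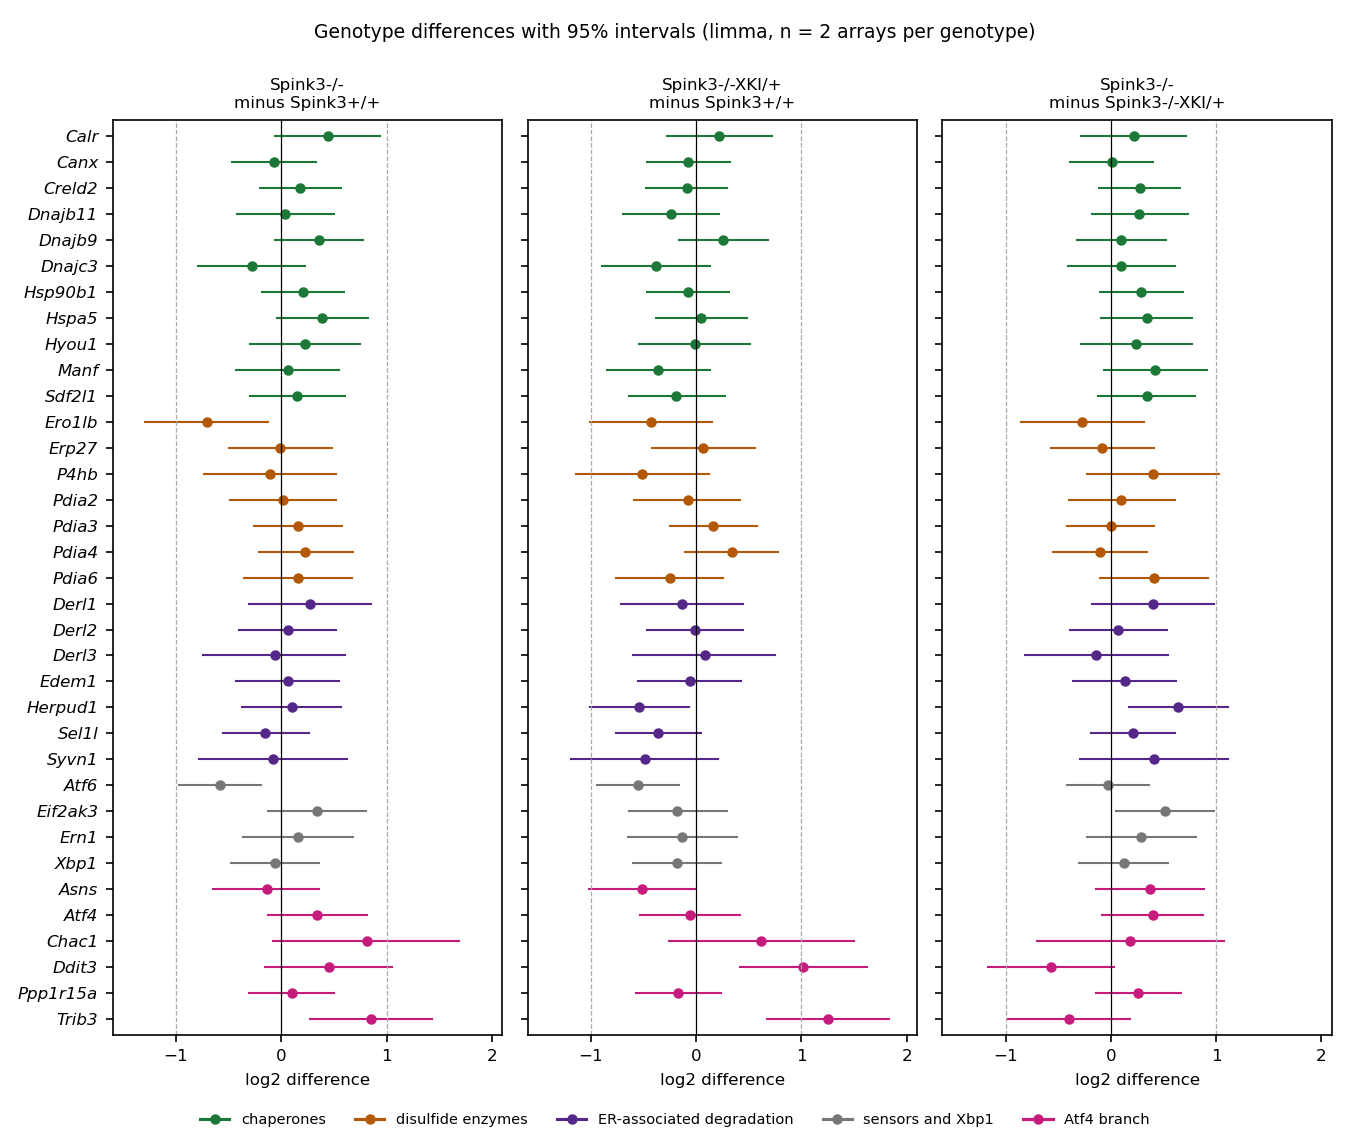
Log2 difference of each of the 35 genes (point) with its 95% interval (line) in the 3 comparisons, from limma with 2 arrays per genotype, coloured by role. Dashed lines mark a 2-fold difference in either direction. In Spink3-/- against Spink3+/+ the intervals of Trib3, Atf6 and Ero1lb leave 0 out, and in Spink3-/- against Spink3-/-XKI/+ those of Herpud1 and Eif2ak3 do.

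The Atf4 branch held the largest differences of the list from wild type, and its genes did not all differ in one direction. Trib3, a pseudokinase induced by Atf4 and Ddit3 that feeds back on them, was at 2.33 and 1.74 in Spink3+/+, 2.97 and 2.79 in Spink3-/- and 3.36 and 3.20 in Spink3-/-XKI/+. The 3 genotypes did not overlap, and the order placed Spink3-/-XKI/+ highest. The difference from wild type was 0.85 in Spink3-/- (SE 0.24, unadjusted p = 0.0118, limma adjusted p = 0.863) and 1.25 in Spink3-/-XKI/+ (SE 0.24, unadjusted p = 0.00187, adjusted p = 0.352). Between the deficient genotypes it was -0.40, with a 95% interval from -0.98 to 0.18. Without Spink3+/+ replicate 2 the Spink3-/- difference from wild type was 0.55, and the Spink3-/-XKI/+ difference ranged from 0.95 to 1.54 over the alternative settings and left-out arrays.

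Ddit3, which encodes the death-associated transcription factor CHOP, had the same order. It stood at -0.23 and -0.82 in Spink3+/+, 0.03 and -0.18 in Spink3-/- and 0.62 and 0.36 in Spink3-/-XKI/+. The differences from wild type were 0.45 (SE 0.25, limma adjusted p = 0.987) and 1.02 (SE 0.25, unadjusted p = 0.00602, adjusted p = 0.452), and Spink3-/- was below Spink3-/-XKI/+ by 0.57 (adjusted p = 0.703). The Spink3-/- difference from wild type was 0.74 without Spink3+/+ replicate 1, 0.16 without Spink3+/+ replicate 2 and 0.27 with normexp background correction. The Spink3-/-XKI/+ difference ranged from 0.70 to 1.31 over the alternative settings and left-out arrays. Trib3 and Ddit3 were the 2 genes of the list with a difference over 1 in any comparison; for each, the wild-type arrays lay farther from each other than did the 2 arrays of either deficient genotype.

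Chac1 encodes a glutathione-degrading enzyme downstream of Atf4. Its level was 1.95 and 1.84 in Spink3+/+, 3.26 and 2.15 in Spink3-/- and 2.38 and 2.66 in Spink3-/-XKI/+. All 4 deficient arrays were above wild type, and 1 of them, Spink3-/- replicate 1, was far above the rest. The difference for Spink3-/- was 0.81 (SE 0.36, limma adjusted p = 0.987); it was 0.25 without replicate 1 and 1.36 without replicate 2, which is also its value within the first slide row. The Spink3-/-XKI/+ difference from wild type was 0.62 (adjusted p = 0.751) and 1.73 with slide row as a block.

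Atf4 itself was at 6.12 and 6.38 in Spink3+/+, 6.75 and 6.43 in Spink3-/- and 6.17 and 6.22 in Spink3-/-XKI/+. On this brighter probe its Spink3-/- arrays were above the other 4, by 0.34 against wild type (limma adjusted p = 0.987) and 0.40 against Spink3-/-XKI/+ (adjusted p = 0.728). Without Spink3-/- replicate 1 these were 0.18 and 0.24, and without Spink3+/+ replicate 1 the former was 0.21. The second probe did not keep that order: Spink3-/- stood at 0.89 and 0.98, and Spink3-/-XKI/+ at 0.24 and 1.25. Asns, the Atf4 target that makes asparagine, was lower in Spink3-/-XKI/+ than in wild type by 0.51 (SE 0.21, unadjusted p = 0.048, limma adjusted p = 0.658), with 6.96 and 7.18 in Spink3+/+, 6.72 and 7.13 in Spink3-/- and 6.48 and 6.63 in Spink3-/-XKI/+. With slide row as a block that difference was -0.93. Ppp1r15a (GADD34), which reverses the translation block, differed from wild type by 0.10 and -0.17. Thus Trib3, Ddit3 and Chac1 were above wild type in Spink3-/-XKI/+ on both arrays while Asns and Ppp1r15a were below it.

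**Figure D4:**
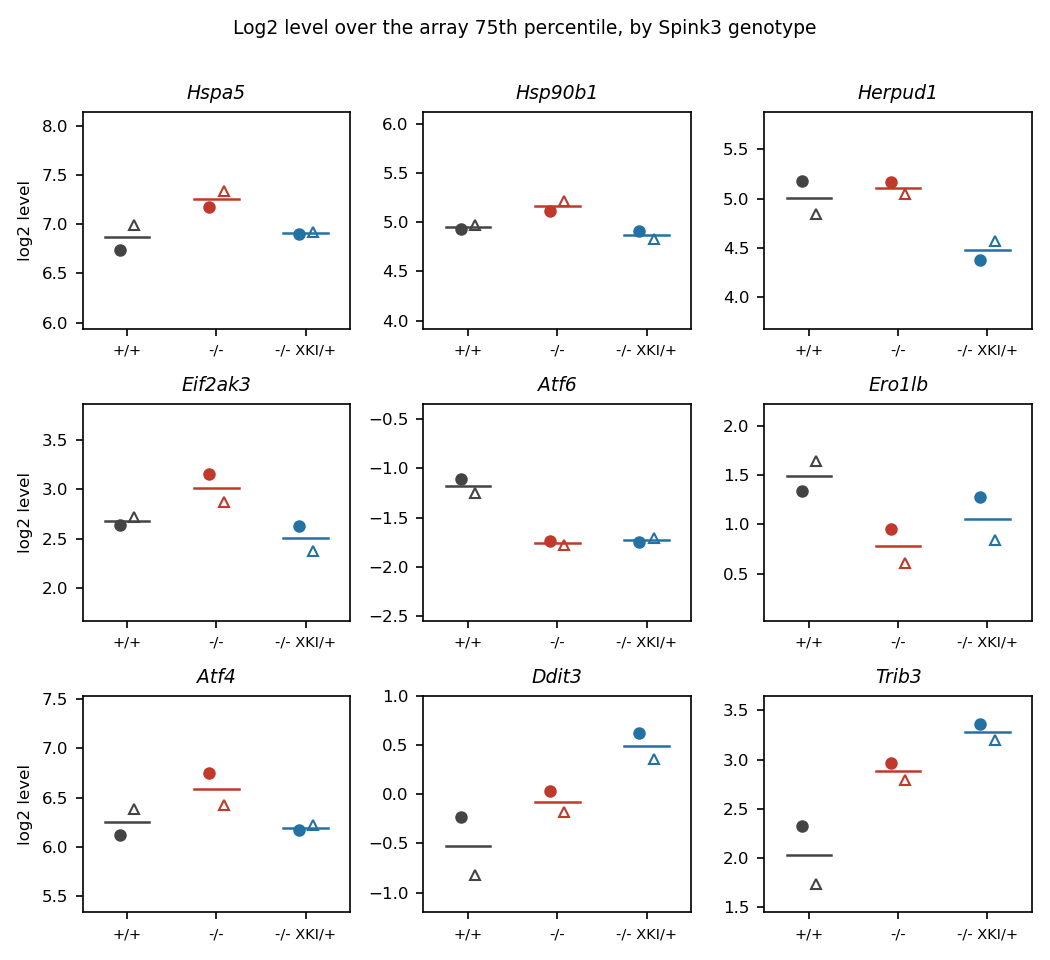
Log2 level relative to each array's own 75th percentile (vertical axes, each spanning 2.2 units) for 9 genes by Spink3 genotype; filled circles are replicate 1, open triangles replicate 2 and lines the genotype mean. Hspa5, Hsp90b1, Eif2ak3 and Atf4 (brighter probe) are highest in Spink3-/-, Herpud1 is lowest in Spink3-/-XKI/+, Atf6 is lower in both deficient genotypes, and Ddit3 and Trib3 are highest in Spink3-/-XKI/+.

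The genes with and without the ERSE letters in their windows were set side by side. Of the 10 with ERSE, 5 were higher in Spink3-/- than in wild type (median 0.05), 3 were higher in Spink3-/-XKI/+ (median -0.08) and 8 were higher in Spink3-/- than in Spink3-/-XKI/+ (median 0.25, from -0.27 to 0.41). Of the 20 with a window and no ERSE letters, 16, 6 and 16 were higher in the same comparisons, with medians of 0.12, -0.11 and 0.20. The range of the ERSE genes in Spink3-/- against wild type ran from Ero1lb at -0.71 to Calr at 0.44. No test of these 2 sets was made.

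A wider list of 102 other genes of these pathways was also counted, of which 92 were tested and 0 were called in any comparison. At an unadjusted p under 0.05 (limma) it held 4 higher and 3 lower genes in Spink3-/- against wild type (2.73% and 2.33% of all genes), 2 and 4 in Spink3-/-XKI/+ against wild type (5.03% and 2.54% of all genes), and 3 and 3 in Spink3-/- against Spink3-/-XKI/+ (2.44% and 4.77% of all genes). Its medians were 0.01, -0.09 and 0.06. Of its 32 tested genes of the Atf4 branch, 10 were higher and 22 lower in Spink3-/-XKI/+ than in wild type (median -0.30). Without overlap 6 were higher and 17 lower, as were 26% and 16.1% of all genes. In Spink3-/- against wild type 14 of the 32 were higher and 18 lower (median -0.07). Atf3, a stress transcription factor that acts with Atf4, stood at -2.83 and -1.91 in Spink3+/+, 0.14 and -1.23 in Spink3-/- and -0.03 and -0.84 in Spink3-/-XKI/+. It was above wild type on all 4 deficient arrays, by 1.82 (limma adjusted p = 0.885) and 1.93 (adjusted p = 0.523), and its probe was well above background on 1 of the 2 wild-type arrays. Ddit4, an inhibitor of mTORC1, and Agr2, a disulfide isomerase of secretory epithelia, were 0.72 and 0.98 higher in Spink3-/- than in wild type. The limma adjusted p-values were 0.903 and 0.927. Agr2 stood at -0.33 and -0.27 in Spink3+/+ and at 1.14 and 0.22 in Spink3-/-, so its difference leans on Spink3-/- replicate 1. Tnfrsf10b, a death receptor and Ddit3 target, was 0.66 higher in Spink3-/-XKI/+ than in wild type and 0.74 lower in Spink3-/- than in Spink3-/-XKI/+.

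The lower genes of the wider list with the smallest unadjusted p in Spink3-/-XKI/+ against wild type were Psph, Cth and Slc7a5. Spink3-/-XKI/+ was lower by 0.85 for Psph, the last enzyme of serine synthesis, by 1.02 for Cth, which makes cysteine, and by 0.60 for Slc7a5, an amino acid carrier; the lowest limma adjusted p of these was 0.478. Cth was also 0.74 lower in Spink3-/-, where its probe was well above background on 1 of the 2 arrays. Mthfd2, a mitochondrial folate enzyme induced by Atf4, was 0.51 higher in Spink3-/- than in Spink3-/-XKI/+, as was Ufm1, an ER-linked protein modifier, by 0.53. Creb3l3, a liver and gut ER-bound transcription factor, was lower in Spink3-/- by 1.27 against wild type and by 1.75 against Spink3-/-XKI/+ (limma adjusted p = 0.933 and 0.489). Mbtps2, the protease that makes the second cut in Atf6, was 0.60 lower in Spink3-/- than in wild type and 0.52 lower than in Spink3-/-XKI/+; its probe too was well above background on 1 of the 2 Spink3-/- arrays.

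The medians of some cell type marker lists differed between genotypes, and the part of these cells in the results above was not tested. Of 14 liver markers, 14 were higher in Spink3-/- than in wild type (median 1.53), where 49.1% of all genes were. At an unadjusted p under 0.05 (limma) 7 were higher, as were 2.73% of all genes. Against Spink3-/-XKI/+ 13 were higher in Spink3-/- (median 1.53), where 42.7% of all genes were. Serpina1a led both, at 2.15 and 2.22 by unadjusted p. In Spink3-/-XKI/+ against wild type 9 of the 14 were higher (median 0.10), where 56.3% of all genes were. The log2 of a list's summed linear levels is weighted to its brightest probes. For the liver markers it was 6.98 to 7.15 in Spink3+/+, 7.51 to 7.65 in Spink3-/- and 7.12 to 7.24 in Spink3-/-XKI/+. Their mean log2 level was 0.69 and 0.98 in Spink3+/+, 2.28 and 2.01 in Spink3-/- and 0.28 and 1.52 in Spink3-/-XKI/+, so that the 2 Spink3-/-XKI/+ arrays stood apart from each other. Of 16 acinar markers, 13 were lower in Spink3-/- than in wild type (median -0.18), a comparison in which 49.1% of all genes were higher. The log2 of their summed linear levels was 13.87 to 14.06 in Spink3+/+, 13.72 to 14.15 in Spink3-/- and 13.95 to 14.00 in Spink3-/-XKI/+. The acinar lipase gene Pnlip differed most, by -1.41 in Spink3-/- and 1.09 in Spink3-/-XKI/+ against wild type. Of 10 macrophage markers, 8 were higher in each deficient genotype than in wild type (medians 0.23 and 0.42), where 49.1% and 56.3% of all genes were. Of 8 neutrophil markers 7 were lower in each (medians -0.74 and -1.09). In Spink3+/+, Spink3-/- and Spink3-/-XKI/+ the log2 of the summed linear levels was 5.47 to 5.63, 5.77 to 5.79 and 5.86 to 6.17 for macrophage markers. For neutrophil markers it was 6.86 to 7.39, 6.26 to 6.62 and 6.56 to 6.62. No marker gene passed the adjusted threshold. All 4 tested erythroid markers were lower in both deficient genotypes (medians -0.55 and -0.98). Of all genes, 49.1% and 56.3% were higher in these comparisons. At an unadjusted p under 0.05 (limma) 0 and 3 of the erythroid markers were lower, as were 2.33% and 2.54% of all genes. The log2 of their summed linear levels was 8.51 to 9.67, 8.62 to 8.69 and 8.06 to 8.17, in the same genotype order. Of 8 fibroblast markers, 2 were higher in Spink3-/- (median -0.02) and 7 in Spink3-/-XKI/+ (median 0.15, 6 without overlap, as were 26% of all genes). Of all genes, 49.1% and 56.3% were higher. The log2 of the summed linear levels of these markers was 9.41 to 9.55, 9.51 to 9.55 and 9.62 to 9.77. The medians of the other lists against wild type, in Spink3-/- and Spink3-/-XKI/+, were 0.01 and 0.15 for islet, -0.03 and 0.06 for duct, -0.27 and -0.10 for endothelial and -0.27 and 0.20 for plasma and B cell markers, of which 3 of 7 were tested.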

How the data were processed

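Whole-pancreas RNA of 6 samples was measured on 6 Agilent arrays (2 per genotype); per the file headers the authors extracted the deposited intensity values with Feature Extraction 10.7.3.1, with probes annotated on mm9. The processed Cy3 intensity was taken as log2 minus each array's 75th percentile. The series' deposited table of intensity values was identical and not used further. Of 55681 probes, 24820 were kept, namely those that some genotype showed well above background on each of its 2 arrays; the brightest measured on all 6 arrays stood for a gene. Probes were named through RefSeq accessions and symbols. limma 3.58.1 (R 4.3.3) was fitted to all 6 arrays with 3 residual degrees of freedom, two-sided, Benjamini-Hochberg over 14167 genes, and was tested on simulated data. The genes, roles and lists were chosen with earlier results of these data known. Named genes are, per role and comparison, the 2 with the largest absolute difference, plus Hspa5, Hsp90b1, Atf4, Ddit3 and Xbp1, and up to 3 of the wider list and markers by unadjusted p in each direction. Creld2, Pdia2, Erp27, Asns and Ppp1r15a were named after their values were seen. Alternatives were 8 settings and 6 left-out arrays. Promoters were searched with Python 3.11.15. Sequences of proteins were not used here.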

Additional observations from a re-analysis of the deposited data

How the results depend on the processing

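None of the 35 genes was called in any of the 14 settings of any comparison (lowest adjusted p 0.271, 0.483 and 0.23 for Spink3-/- against wild type, Spink3-/- against Spink3-/-XKI/+ and Spink3-/-XKI/+ against wild type), and the median of the list kept its sign throughout. In Spink3-/- against wild type the median of 0.10 became 0.19 under spike-in scaling and ranged from 0.08 to 0.18 with 1 array left out, highest without Spink3-/- replicate 1. The left-out ranges were 0.16 to 0.29 for Spink3-/- against Spink3-/-XKI/+ and -0.16 to -0.07 for Spink3-/-XKI/+ against wild type. Of 490 single-gene values per comparison, 456, 468 and 463 kept their sign. For the 35 genes, no filter, only the 2 genotypes and the replicate block gave the main differences again by construction. So did leaving out an array of the genotype not compared. No sign could change there, so these counts overstate how far the direction was checked. In both comparisons of Spink3-/-, slide row as a block repeats the fit with 1 Spink3-/- array left out. Genes called over the whole array numbered 5 in Spink3-/- against wild type and 2 with the mean of a gene's probes, and 1 each with normexp background, no filter, only the 2 genotypes, the replicate number as a block or slide row as a block; they numbered 1 to 6 with 1 array left out. In Spink3-/- against Spink3-/-XKI/+ the count of 1 became 4 with quantile normalization, 3 with slide row as a block, 2 with spike-in scaling, 0 with normexp, no filter, only the 2 genotypes or the replicate block, and 0 to 3 with 1 array left out. In Spink3-/-XKI/+ against wild type the count of 1 became 3 with quantile normalization, 2 with normexp, 0 with slide row as a block, and 1 to 2 with 1 array left out. The cause was not tested. Same-numbered replicates did not deviate together (correlations -0.06, 0.03 and 0.20), so the numbers are not taken as pairs. All 35 probes were well above background on all 6 arrays, there were 2 arrays per genotype, and slide row overlaps with genotype.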

Other observations

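Of the 35 genes, 8 had more than 1 tested probe. For Atf4, the second probe gave 0.49, 0.29 and 0.19 in Spink3-/- against wild type, Spink3-/-XKI/+ against wild type and Spink3-/- against Spink3-/-XKI/+, where the brighter probe gave 0.34, -0.06 and 0.40. The second tested probe of Ern1 gave 0.12, -0.51 and 0.63, where the brighter gave 0.16, -0.13 and 0.29. The 2 dimmer probes of Derl2 gave -0.18 and 0.46 in Spink3-/- against wild type. A second probe was assigned to Syvn1 only through the older name D530017H19Rik. It lies on the minus strand at chr19:6045128-6045187 of mm9, while the brighter probe lies on the plus strand at chr19:6053583-6053642. Being on the opposite strand, it may not read Syvn1 messenger RNA. It gave -0.39 and the brighter probe -0.08 in Spink3-/- against wild type. Syvn1 is counted among the 8 through this probe, which also enters the mean of a gene's probes.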
